A study of Mus musculus with 5 samples.

Results

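Whole lungs of wild-type female BALB/c mice that had received both airborne particles and an allergen were compared with lungs of control mice. The comparison takes 2 of the 5 RNA sequencing libraries of the study, 1 library for each group, chosen by their treatment labels alone. In the PM10/OVA group, PM10 (inhalable particulate matter) went into the nose 4 times over 2 weeks, and ovalbumin (OVA, an egg protein used as allergen) was injected into the abdominal cavity and later put into the nose. The Control group carries the treatment label None, and whether it received a vehicle is not given in the sources used here. Lungs were collected 2 days after the last challenge. The other libraries are PM10 alone and PM10/OVA with either CPX, a chitinase-1 inhibitor, or Dex, the glucocorticoid dexamethasone, and they enter here only where a level is set beside the compared pair. The sources used here do not give doses, the age of the mice, or whether a library holds RNA of 1 animal or of several.

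Inhaled particles are taken up by macrophages and airway epithelium, and both cell types respond with chemokines that bring neutrophils and monocytes into the lung. Ovalbumin in a sensitised mouse drives a different response, in which T helper cells and innate lymphoid cells release type 2 cytokines, airway epithelium turns to mucus production, eosinophils arrive and macrophages switch on an alternative programme of arginase, resistin-like and chitinase-like proteins. Whole-lung RNA mixes all of these cells with the epithelium, vessels and connective tissue. A higher level of a gene in bulk RNA can come from more cells of a type or from more RNA per cell, and these cannot be told apart here.

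The sequences that precede some of the genes named below are shown first, and each of them holds a motif match. Il6, Ccl17, Ciart and Myl7 are not among the 20 highest or 20 lowest log2 ratios. RefSeq promoters of GRCm38.p6 cover 250 bases before each gene's start to 50 bases after it, and both strands were searched. Motifs were matched by letters alone, and a match describes the window only. For the chemokine genes Cxcl1 (chr5:90891125-90891244, + strand), Cxcl2 (chr5:90903779-90903898, + strand) and Cxcl3 (chr5:90785981-90786100, + strand) and for the cytokine gene Il6 (chr5:30012994-30013113, + strand), capitals mark matches to the NF-kB consensus, the site of the main inflammatory transcription factor.
Cxcl1: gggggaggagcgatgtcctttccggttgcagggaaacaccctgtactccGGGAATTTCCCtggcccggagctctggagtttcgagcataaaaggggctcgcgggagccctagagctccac
Cxcl2: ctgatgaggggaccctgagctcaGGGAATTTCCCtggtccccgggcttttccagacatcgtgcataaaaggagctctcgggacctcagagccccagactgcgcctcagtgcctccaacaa
Cxcl3: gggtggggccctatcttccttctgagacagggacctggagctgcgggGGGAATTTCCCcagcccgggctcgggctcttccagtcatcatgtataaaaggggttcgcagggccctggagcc
Il6: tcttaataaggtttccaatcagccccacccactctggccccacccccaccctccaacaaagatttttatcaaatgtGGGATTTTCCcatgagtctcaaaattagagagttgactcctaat
The Cxcl1, Cxcl2 and Cxcl3 windows hold the same capital letters, which give 2 overlapping matches to the consensus, 1 on each strand. Promoters were found for 12 of the 13 measured neutrophil chemokine and receptor genes, and 5 held a match (41.7%), against 9.55% of all 27025 promoters of this length and 12.5% of those of measured genes. The monocyte chemokine list had 4 of 11, the acute-phase list 6 of 20, and the interleukin-6 and interleukin-17 list, which holds Il6, 6 of 16. For Retnla (chr16:48842449-48842608, + strand) and Ccl17 (chr8:94810293-94810452, + strand), genes known to respond to interleukin-4 and interleukin-13, capitals mark TTC and GAA held apart by 4 bases of any kind, the spacing known for STAT6.
Retnla: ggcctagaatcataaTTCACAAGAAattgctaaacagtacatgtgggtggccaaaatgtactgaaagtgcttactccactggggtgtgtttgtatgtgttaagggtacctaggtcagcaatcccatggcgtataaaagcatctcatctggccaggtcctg
Ccl17: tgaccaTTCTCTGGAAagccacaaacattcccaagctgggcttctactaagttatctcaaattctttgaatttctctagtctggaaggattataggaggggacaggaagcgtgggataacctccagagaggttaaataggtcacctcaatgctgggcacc
This motif stood in 4 of 16 promoters of the alternatively activated macrophage list and in 1 of 14 of the mucous cell list. The type 2 chemokine list, which holds Ccl17, had 1 of 5. The share was 8.01% of all promoters. For Ciart (chr3:95882229-95882358, - strand), a repressor in the circadian clock, capitals mark the E-box CACGTG bound by clock activators. For Myl7 (chr11:5898783-5898882, - strand), an atrial myosin light chain, they mark the CArG box of muscle genes.
Ciart: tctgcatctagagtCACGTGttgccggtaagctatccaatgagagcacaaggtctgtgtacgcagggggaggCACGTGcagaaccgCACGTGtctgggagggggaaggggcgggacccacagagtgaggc
Myl7: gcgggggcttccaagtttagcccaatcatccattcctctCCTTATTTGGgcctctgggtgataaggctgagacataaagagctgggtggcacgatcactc
The E-box stood in 5 of 19 clock promoters, against 8.09% of all and 11.3% of those of measured genes. The CArG box stood in 7 of 52 heart muscle promoters and in 0 of 18 smooth muscle promoters, against 1.81% of all.

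The PM10/OVA library held 16036136 counts and the Control library 16929068. Levels are given as CPM, read counts brought to the same total per library, with a further TMM factor (trimmed mean of M-values), on which 1 count was worth 0.0631 CPM in PM10/OVA and 0.0577 CPM in Control. The tissue label was checked against markers of the lung. Sftpc, the surfactant protein of alveolar type 2 cells, stood at 13995 CPM in PM10/OVA and 12728 CPM in Control. Ager of alveolar type 1 cells stood at 1697 and 1585 CPM in the same order, and Scgb1a1 of club cells at 19289 and 20963 CPM. The endothelial gene Pecam1 stood at 947 CPM in PM10/OVA and 965 CPM in Control. The Control library stood apart from the rest of the series in genes of tissues next to the lung. Of 63 measured heart muscle genes, 61 had their highest level of the 5 libraries in Control, as did 38 of 47 adipocyte genes and 20 of 25 cartilage genes, where 24.6% of all measured genes did so. Every difference below is therefore between PM10/OVA and a library with more RNA of heart muscle, fat and cartilage genes. Whether that RNA came from tissue beside the lung or from within the lung was not tested. The part it plays in other results was not tested either. Longer transcripts had lower ratios: across 14196 genes, which share both libraries and are not independent replicates, Spearman's rho between exon length and log2 ratio was -0.27, and the median log2 ratio was 0.13 among the shortest genes and -0.11 among the longest when the genes were cut into 3 equal groups.

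Genes whose CPM averaged at least 1 over all 5 libraries were taken as measured, 14305 in number. The log2 ratio is log2(CPM + 1) in PM10/OVA minus log2(CPM + 1) in Control, and a gene was called higher or lower from a 2-fold difference on that scale. This called 454 genes higher in PM10/OVA, 3.17% of those measured, and 390 genes lower, 2.73%. The counts given below for each list are to be read beside these shares. The median log2 ratio of all measured genes was 0.01, and its quartiles were -0.22 and 0.25. At 4-fold, 105 genes were higher and 140 lower, and at 10-fold 24 and 27. The higher genes together made up 40849 CPM in PM10/OVA and 11666 CPM in Control, and the lower genes 6574 CPM in PM10/OVA and 22767 CPM in Control. Lists of tissues bordering the lung held 213 of the 14305 measured genes. They held 7 of the 454 higher genes (1.54%), near their share of all measured genes, and 112 of the 390 lower genes (28.7%). These lists were chosen with earlier results of these data known. A member that is measured only through a high level in Control is also favoured to count as lower. With 1 library per group no difference has a replicate check and no test was made. Folds below are ratios of CPM in PM10/OVA to CPM in Control, and the range after each is its exact 95% counting interval, which leaves out all variation between lungs. A ratio whose interval includes 1 is within counting error.

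The 20 genes with the highest log2 ratios, a scale on which the added 1 CPM holds down genes of few counts, were led by Saa3 (GRCm38 chromosome 7, 46711998 to 46715700, protein-coding), an acute-phase serum amyloid made in the lung itself, at 694 CPM in PM10/OVA and 2.19 CPM in Control. Clca1 (chromosome 3, 145003817 to 145032776), a secreted protein of goblet cells, followed at 313 CPM in PM10/OVA and 1.61 CPM in Control, and Retnla (chromosome 16, 48842551 to 48844461), a resistin-like protein of macrophages and epithelium, at 1857 and 23.7 CPM. The set also held 7 chemokine genes (Cxcl5, Cxcl3, Ccl8, Cxcl2, Ccl7, Ccl4 and Cxcl1), the anion exchanger Slc26a4, the itaconate enzyme Irg1, the protease inhibitor Timp1, Arg1, Mmp12, Il1rn, Lcn2, Serpina3n, the receptor Clec4e and the eosinophil-associated ribonuclease Rnase2a. The lowest log2 ratio was that of Nppa (chromosome 4, 148000722 to 148002079), the atrial natriuretic peptide, at 1.07 CPM in PM10/OVA and 595 CPM in Control, 555-fold lower (346 to 952). Of the other 19 lowest genes, most belong to heart muscle (Mb, Kcnj3, Ttn, Sbk3, Nppb, Pln, Myh6, Ryr2), cartilage (Col10a1, Acan, Col2a1, Col11a1, Comp) or fat (Thrsp, Car3, Plin1), with Bpifa1 and Krt15 of the large airways and Myoc beside them.

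**Figure D1:**
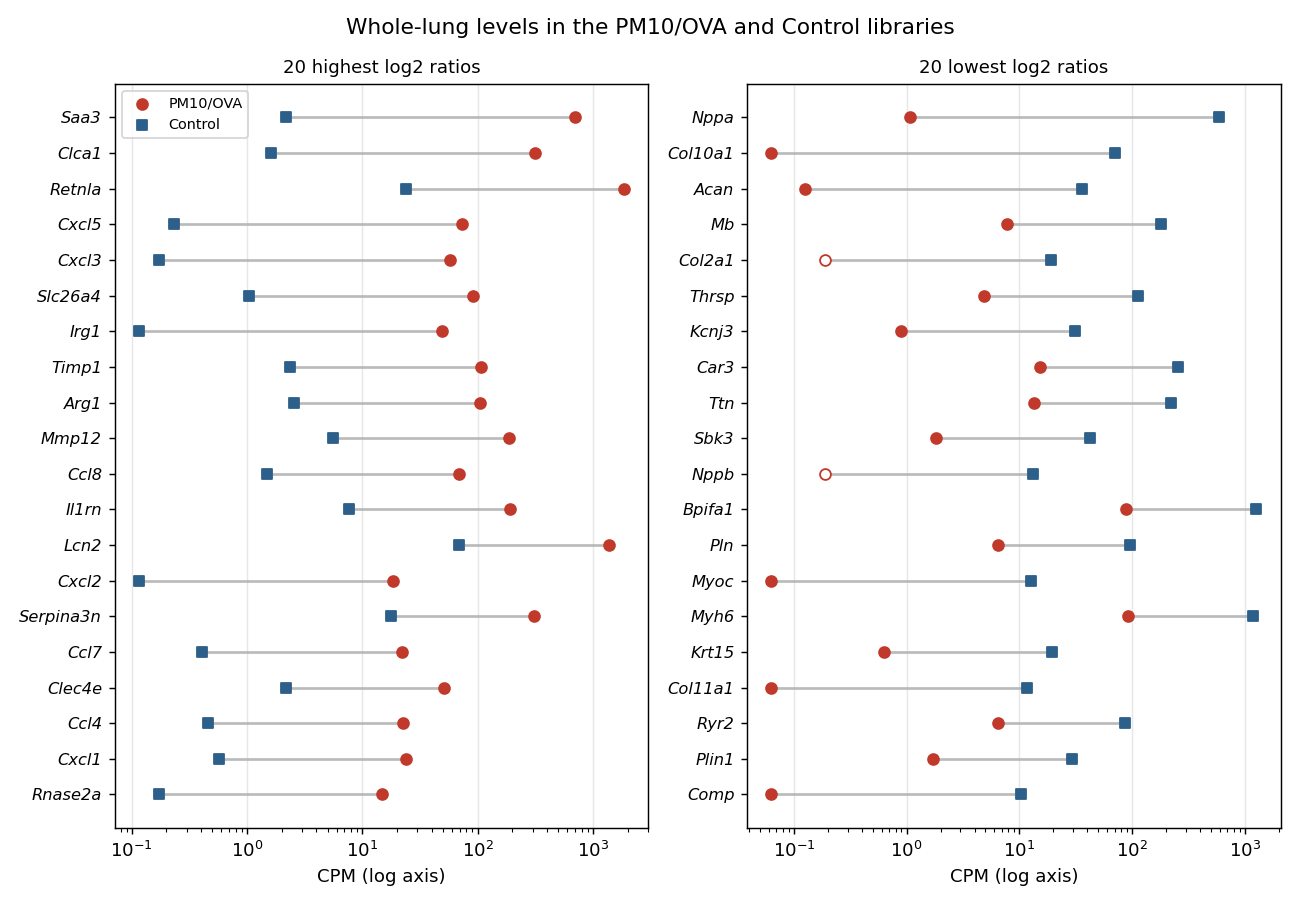
CPM on a log axis of the 20 genes with the highest and the 20 with the lowest log2 ratio, circles for PM10/OVA and squares for Control, 1 library each; an open circle marks a gene with 0 counts, drawn at the floor of 3 counts (0.189 CPM). Chemokine and acute-phase genes make up much of the left panel, and heart, cartilage and fat genes most of the right one.

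The level in the PM10 library differed among these leading genes. Irg1 was at 49 CPM in PM10/OVA, 49 CPM in PM10 and 0.115 CPM in Control. Saa3 was at 694 CPM in PM10/OVA, 463 CPM in PM10 and 2.19 CPM in Control, and Mmp12 at 188, 132 and 5.59 CPM in the same order. Arg1, the enzyme that splits arginine to ornithine and urea, was at 104 CPM in PM10/OVA, 2.98 CPM in PM10 and 2.54 CPM in Control. Clca1 was at 313 CPM in PM10/OVA, 7.12 CPM in PM10 and 1.61 CPM in Control. Rnase2a was at 15 CPM in PM10/OVA, 0.331 CPM in PM10 (4 counts) and 0.173 CPM in Control (3 counts). The PM10 library thus lay near PM10/OVA for Irg1 and near Control for Arg1.

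Chemokines that act on the neutrophil receptor Cxcr2 were higher in PM10/OVA. Of 13 measured neutrophil chemokine and receptor genes 8 were at least 2-fold higher and 0 lower, with a median log2 ratio of 1.62. Cxcl5, a ligand released by epithelium, stood at 73.4 CPM in PM10/OVA and 0.231 CPM in Control (4 counts), 318-fold higher (124 to 1170.5). Cxcl3 had 57.7 CPM in PM10/OVA against 0.173 CPM in Control and Cxcl2 18.5 against 0.115 CPM, which is 3 and 2 counts in Control. Their ratios carry wide counting intervals, with 334 (114 to 1621) for Cxcl3 and 161 (44.1 to 1334) for Cxcl2. Cxcl1 stood at 23.8 CPM in PM10/OVA and 0.577 CPM in Control, 41.2-fold higher (22.2 to 86.7). Of these 4 ligands, Cxcl1, Cxcl2 and Cxcl3 are those whose promoters are printed above with the shared NF-kB match. Cxcl15, a lung epithelial chemokine, was already abundant in Control and was 2.24-fold higher (2.2 to 2.29), at 2107 CPM in PM10/OVA and 939 CPM in Control. The receptor Cxcr2 itself was 5.14-fold higher (4.37 to 6.07) and Csf3r, the receptor of the neutrophil growth factor, 4.09-fold higher (3.68 to 4.56).

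Neutrophil genes were higher as well. In this list 17 of 22 measured neutrophil genes were at least 2-fold higher, 1 was lower, and the median log2 ratio was 1.92. S100a8, a subunit of the calcium-binding complex calprotectin, stood at 130.3 CPM in PM10/OVA and 33 CPM in Control. Lcn2, an iron-trapping protein that epithelium also makes, stood at 1390.4 CPM in PM10/OVA and 68.6 CPM in Control, 20.3-fold higher (19.1 to 21.5). Cd177, a neutrophil surface protein, was 7.01-fold higher (6.18 to 7.98), and the lectin receptors Clec4e and Clec4d, shared with monocytes, were 23.4-fold higher (16.9 to 33.2) and 17.4-fold higher (13.1 to 23.5). The gene of myeloperoxidase, Mpo, which is transcribed in marrow precursors, had 0 counts in both libraries. The member that was lower was Ltf, lactoferrin, which airway glands also make, at 88.9 CPM in PM10/OVA and 409.5 CPM in Control.

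**Figure D2:**
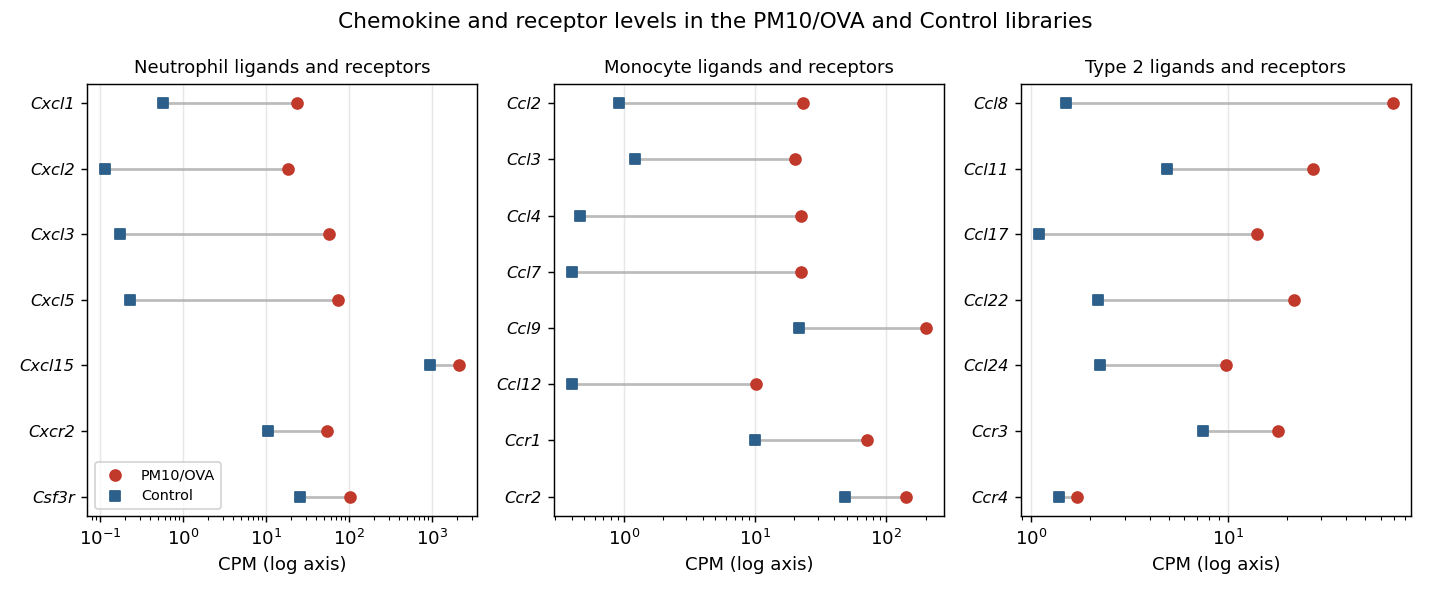
CPM on log axes of chemokine ligands and receptors by the cells they mainly attract, circles for PM10/OVA and squares for Control, 1 library each. Each ligand and receptor drawn lies higher in PM10/OVA, with the smallest gap at Ccr4, at 1.7 CPM in PM10/OVA and 1.38 CPM in Control.

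Ligands for monocytes were higher with them. Of 17 measured monocyte-attracting CC chemokine and receptor genes, 12 were at least 2-fold higher and 0 lower (median log2 ratio 1.72). Ccl2, the main ligand of Ccr2, stood at 23.2 CPM in PM10/OVA and 0.922 CPM in Control, 25.2-fold higher (15.3 to 44.5). Ccl7 was 55.2-fold higher (26.5 to 138) and Ccl4 48.8-fold higher (24.5 to 114). Ccl9, a constitutive chemokine of mouse macrophages, stood at 201 CPM in PM10/OVA and 21.6 CPM in Control. The receptors Ccr2 and Ccr1 were 2.88-fold higher (2.66 to 3.13) and 7.05-fold higher (6.01 to 8.32). On the vessel side, Sele and Selp, the selectins on which leukocytes roll, were 8.42-fold higher (4.7 to 16.4) and 4.76-fold higher (3.72 to 6.15), and the adhesion molecule Vcam1 stood at 121 CPM in PM10/OVA and 61.7 CPM in Control.

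Several inflammatory cytokine genes were higher in PM10/OVA, some of them from a few counts in Control. Il1b, the secreted product of inflammasome activity, stood at 133 CPM in PM10/OVA and 16.5 CPM in Control. Its antagonist Il1rn stood at 190.4 and 7.73 CPM, and its decoy receptor Il1r2 at 10.2 and 0.634 CPM, both in the same order. The ratio was 24.6 (20.7 to 29.5) for the antagonist, 16.1 (8.77 to 32.9) for the decoy and 8.04 (7.1 to 9.12) for Il1b. The interval of Il1r2 overlaps that of Il1b and the interval of Il1rn does not, but these intervals leave out all variation between lungs. Il33, an epithelial alarm cytokine kept in nuclei, was 3.14-fold higher (2.95 to 3.35). Of 18 measured genes of the interleukin-1 family 9 were 2-fold higher and 0 lower. Il6 stood at 3.66 CPM in PM10/OVA and 0.115 CPM in Control, which is 2 counts in Control, and its ratio was 31.7 (8.4 to 268). Tnf, an early macrophage cytokine, was 20.4-fold higher (9.09 to 56.8), and Osm, oncostatin M, 8.99-fold higher (5.14 to 17). Socs3, the feedback inhibitor that interleukin-6 signalling induces, was 3.26-fold higher (2.93 to 3.64). In the interleukin-6 and interleukin-17 list 9 of 21 genes were 2-fold higher and 0 lower.

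Many genes of secreted acute-phase and complement proteins, most of them better known from liver, were higher in PM10/OVA. 15 of 24 measured acute-phase and antimicrobial genes were 2-fold higher and 1 (Ltf) lower, with a median log2 ratio of 1.78. Serpina3n, a protease inhibitor with near-identical neighbours, stood at 311 CPM in PM10/OVA and 17.6 CPM in Control. The heme binder Hpx was 24.7-fold higher (13.2 to 52.3), and Lrg1, a leucine-rich glycoprotein, 8.4-fold higher (7.61 to 9.29). Saa1 and Orm2 each had 1 count in Control, so their ratios of 97.4 (17 to 3889) and 128 (22.5 to 5099) are loose. C3, the central complement protein, was abundant, at 2439.5 CPM in PM10/OVA and 672 CPM in Control, and Cfb of the alternative pathway stood at 389 and 82.2 CPM in the same order. The C3a receptor C3ar1 was 7.75-fold higher (6.27 to 9.66) and the classical-pathway gene C1qb 3.03-fold higher (2.71 to 3.39). Of 24 measured complement genes 10 were 2-fold higher and 1 was lower, the adipocyte-rich Cfd, at 14.8 CPM in PM10/OVA and 141 CPM in Control.

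The type 2 arm showed in its chemokines more than in its cytokines. 6 of 7 measured type 2 chemokine and receptor genes were 2-fold higher and 0 lower, with a median log2 ratio of 2.26, the highest among 75 lists. Ccl8 stood at 69.3 CPM in PM10/OVA, 29.9 CPM in PM10 and 1.5 CPM in Control, and was 46.2-fold higher in PM10/OVA than in Control (31.4 to 71.1). The eotaxins Ccl11 and Ccl24, ligands of the eosinophil receptor Ccr3, were 5.56-fold higher (4.4 to 7.1) and 4.35-fold higher (3.04 to 6.35). Ccl11 was at 27.3 CPM in PM10/OVA, 4.97 CPM in PM10 and 4.9 CPM in Control, and Ccl24 at 9.78, 0.994 and 2.25 CPM in the same order. Ccl17 and Ccl22, which attract T helper cells through Ccr4, were 12.8-fold higher (8.03 to 21.7) and 9.9-fold higher (7.07 to 14.2). The cytokine transcripts themselves were at the edge of detection: Il4 had 15 counts in PM10/OVA and 3 in Control and Il13 had 7 and 0, and neither reached the level set for measured genes. Of 16 measured genes of the type 2 receptor and STAT6 list 4 were 2-fold higher and 0 lower. Il4ra, the shared receptor chain, was 1.33-fold higher (1.26 to 1.4), and Csf2rb, the shared chain for interleukin-5 and related cytokines, 3.22-fold higher (2.99 to 3.48).

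Eosinophil and basophil transcripts were scarce. 6 of 12 measured eosinophil genes were 2-fold higher, and the median log2 ratio was 0.91, or 0.59 with a pseudocount of 5 CPM. Prg2, the major basic protein, stood at 2.78 CPM in PM10/OVA and 0.115 CPM in Control (2 counts), with a ratio of 24.1 (6.28 to 205). Ccr3 stood at 18.1 and 7.5 CPM in the same order, and Siglecf, which alveolar macrophages also carry, at 24.8 and 14.9 CPM. The eosinophil peroxidase gene Epx had 1 count in PM10/OVA and 0 in Control. Rnase2a and Ear6 belong to a family of near-identical ribonucleases, so the split of reads among them is uncertain. Ear6 was 4.44-fold higher (2.58 to 8.06). Mcpt8, a basophil protease under the level set for measured genes, had 47 counts in PM10/OVA and 2 in Control, a ratio of 25.7 (6.73 to 219), while the mast cell genes Cpa3 and Tpsb2 were 1.28-fold lower (0.870 to 1.91) and 9.27-fold lower (4.27 to 23.9). In the mast cell and basophil list as a whole 3 of 13 measured genes were 2-fold higher and 1 lower.

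Macrophage genes were higher in several programmes at once. Among the 22 measured genes of alternative activation 14 were 2-fold higher and 0 lower (median log2 ratio 1.12). Arg1 stood at 104 CPM in PM10/OVA and 2.54 CPM in Control, 41.2-fold higher (30.5 to 56.9), and Retnla was 78.4-fold higher (71.1 to 86.6). Mmp12, the macrophage elastase, was 33.7-fold higher (27.5 to 41.7), and Clec7a, the beta-glucan receptor, 4.4-fold higher (4.12 to 4.7). Of 30 lipid-associated and fibrotic macrophage genes 17 were 2-fold higher. Gpnmb, a lysosomal glycoprotein, stood at 113 CPM in PM10/OVA and 14.9 CPM in Control, Spp1 (osteopontin) at 198 and 47.2 CPM, and the lipid receptor Trem2 at 18.5 and 4.44 CPM. The member that was 2-fold lower was Fabp4, a fatty-acid binder of adipocytes as well as macrophages, at 23.2 CPM in PM10/OVA and 176 CPM in Control. For alveolar macrophages, 7 of 22 genes were higher and 2 lower, the scavenger receptor Marco being 10.1-fold higher (7.09 to 14.7) and Siglecf 1.67-fold higher (1.42 to 1.96). Among monocyte and interstitial macrophage genes 13 of 30 were higher and 2 lower. The classical monocyte marker Ly6c2 stood at 42.7 CPM in PM10/OVA and 40.9 CPM in Control, and its counting interval for the ratio, 0.938 to 1.16, includes 1.

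Receptors and lysosomal enzymes of phagocytes followed. Of 25 measured pattern-recognition receptors 15 were 2-fold higher and 0 lower (median log2 ratio 1.09), among them the lipopolysaccharide co-receptor Cd14, 6.44-fold higher (5.79 to 7.18), the lipoprotein receptor Tlr2, 3.31-fold higher (2.98 to 3.68), and the scavenger receptor Msr1, 9.23-fold higher (7.8 to 11). Mefv, which encodes the inflammasome sensor pyrin, was 19.5-fold higher (11.4 to 36.3). Among Fc receptors 7 of 13 were 2-fold higher. The inhibitory receptor Fcgr2b stood at 90.5 CPM in PM10/OVA and 17.3 CPM in Control and was 5.23-fold higher (4.62 to 5.95), while the activating Fcgr4 was 1.91-fold higher (1.56 to 2.34). The signalling chain Fcer1g was 3.86-fold higher (3.44 to 4.33). Among cathepsins and lysosomal genes 12 of 30 were 2-fold higher and 0 lower. Ctsk, a collagen-cutting protease, was 6.07-fold higher (5.47 to 6.75), and Ctsd, an abundant lysosomal protease, stood at 1312 CPM in PM10/OVA and 717 CPM in Control.

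Metabolic enzymes of activated macrophages were split. Irg1 (also called Acod1), which makes itaconate, had 776 counts in PM10/OVA and 2 in Control, a ratio of 425 (117 to 3512). Arg2, the mitochondrial arginase, was 4.28-fold higher (3.41 to 5.43), and Il4i1, an amino acid oxidase induced by interleukin-4, 10.03-fold higher (7.78 to 13.1). Nos2, which competes with arginase for arginine, was 1.57-fold higher (1.27 to 1.96), at 13.2 CPM in PM10/OVA and 8.42 CPM in Control. Of 19 genes in this list 4 were 2-fold higher, so the ratio of Arg1 was not shared by most of its neighbours in the pathway. Among eicosanoid genes 5 of 22 were higher, including Ptgs2 (cyclooxygenase-2), 2.1-fold higher (1.84 to 2.41), and the leukotriene B4 receptor Ltb4r1, 3.03-fold higher (2.12 to 4.4). Ch25h, which makes 25-hydroxycholesterol in macrophages, was 12.8-fold higher (9.56 to 17.4).

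Chitinase genes, which the series title names, were mostly those of enzymatically inactive relatives. Chit1, the gene of chitinase-1, had 0 counts in both libraries, which allows up to 0.189 CPM in PM10/OVA and 0.173 CPM in Control at the floor of 3 counts. Chil1 (chromosome 1, 134182176 to 134190181) had the largest gain in CPM of any gene, at 3067 CPM in PM10/OVA and 499 CPM in Control, 6.14-fold higher (6.01 to 6.29). Chil3, a macrophage lectin, stood at 509.6 and 108 CPM in the same order, and Chia1, the active acidic chitinase, at 157 and 79.9 CPM. Chil4, nearly identical to Chil3, had 56 counts in PM10/OVA and 0 in Control, 20.4-fold higher with Control set at the floor. Of 6 measured genes 3 were 2-fold higher, and the lysosomal Chid1 and Ctbs were 1.37-fold higher (1.22 to 1.55) and 1.21-fold lower (1.04 to 1.42). Retnlg, a neutrophil resistin-like gene, stood at 79.3 CPM in PM10/OVA and 33.3 CPM in Control, while Retn, resistin of mouse fat, stood at 1.26 and 17.2 CPM.

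Goblet-cell genes differed by very different amounts. 8 of 20 measured mucous genes were 2-fold higher and 0 lower (median log2 ratio 0.87, but 0.49 with a pseudocount of 5 CPM and 0.51 with no filter on low levels). Clca1 was 194-fold higher (134 to 292). Muc5ac, the mucin of allergic mucus, stood at 30.6 CPM in PM10/OVA and 4.09 CPM in Control, and Muc5b, the mucin of resting airways, at 169 and 139.7 CPM. The goblet-cell regulator Spdef was 2.98-fold higher (1.8 to 5.11), and Agr2, which folds mucins, 5.58-fold higher (4.39 to 7.17). Agr2 was at 26.1 CPM in PM10/OVA, 3.4 CPM in PM10 and 4.67 CPM in Control. Slc26a4 (pendrin), which moves bicarbonate, iodide and thiocyanate into airway liquid, stood at 90.7 CPM in PM10/OVA and 1.04 CPM in Control. The channel genes Cftr and Scnn1a were 1.27-fold higher (1.14 to 1.43) and 1.09-fold lower (1.05 to 1.13), and 3 of 20 ion and water transport genes were 2-fold higher. Pigr, which carries antibodies across epithelium, stood at 576 CPM in PM10/OVA and 129.6 CPM in Control, 4.45-fold higher (4.25 to 4.66).

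Club, ciliated and large-airway genes were more often lower than higher. Of 23 club cell genes 0 were 2-fold higher and 6 lower (median log2 ratio -0.46). Scgb1a1 was only 1.09-fold lower (1.08 to 1.09), whereas Scgb3a2, a related secretoglobin, was 1.9-fold lower (1.84 to 1.97) and Cyp2f2, the club-cell cytochrome, 2.08-fold lower (2.05 to 2.12). Cyp2a5, which activates and clears small foreign molecules, stood at 33.2 CPM in PM10/OVA and 297 CPM in Control. Of 34 ciliated cell genes, 32 had log2 ratios below 0, where 51.3% of all measured genes lay above 0. Their median was -0.43, or -0.32 with a pseudocount of 5 CPM. At 2-fold 1 of them was lower, beside 2.73% of all measured genes. Foxj1, the regulator of motile cilia, was 1.3-fold lower (1.19 to 1.43), and the long axonemal genes Hydin and Dnah5 were 2.25-fold lower (1.92 to 2.64) and 2.01-fold lower (1.83 to 2.21). Large-airway genes had larger differences. Bpifa1, secreted in nose and large airways, with near-identical relatives, stood at 88.8 CPM in PM10/OVA and 1264 CPM in Control, and the basal-cell keratins Krt5 and Krt15 had 2 and 10 counts in PM10/OVA against 114 and 340 in Control. The summed level of the large-airway, gland and basal list ranged from 2263 to 3894 CPM over the 5 libraries, with 2567 CPM in PM10/OVA and 3184 CPM in Control.

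Alveolar epithelium gave smaller differences. 5 of 30 alveolar type 2 genes were 2-fold higher and 2 lower. The higher ones include host-defence products (Lcn2, Chil1, Il33, Cxcl15 and Sftpd, the collectin surfactant protein, 2.9-fold higher (2.83 to 2.98)), while Fasn, fatty acid synthase, which fat also expresses, was 2.37-fold lower (2.3 to 2.44). Lamp3, a lamellar-body membrane protein, was 1.6-fold higher (1.56 to 1.65) and Sftpc 1.1-fold higher (1.09 to 1.11). None of 23 alveolar type 1 genes reached 2-fold in either direction. Among genes of injury-associated transitional epithelium 6 of 29 were higher. These include the cell-cycle inhibitor Cdkn1a, 2.37-fold higher (2.14 to 2.64), and the galectin Lgals3, 3.58-fold higher (3.39 to 3.79), which macrophages also express. The keratin Krt8, the usual marker of that state, was 1.08-fold higher (1.03 to 1.14), and Cldn4 was 1.97-fold lower (1.43 to 2.74).

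**Figure D3:**
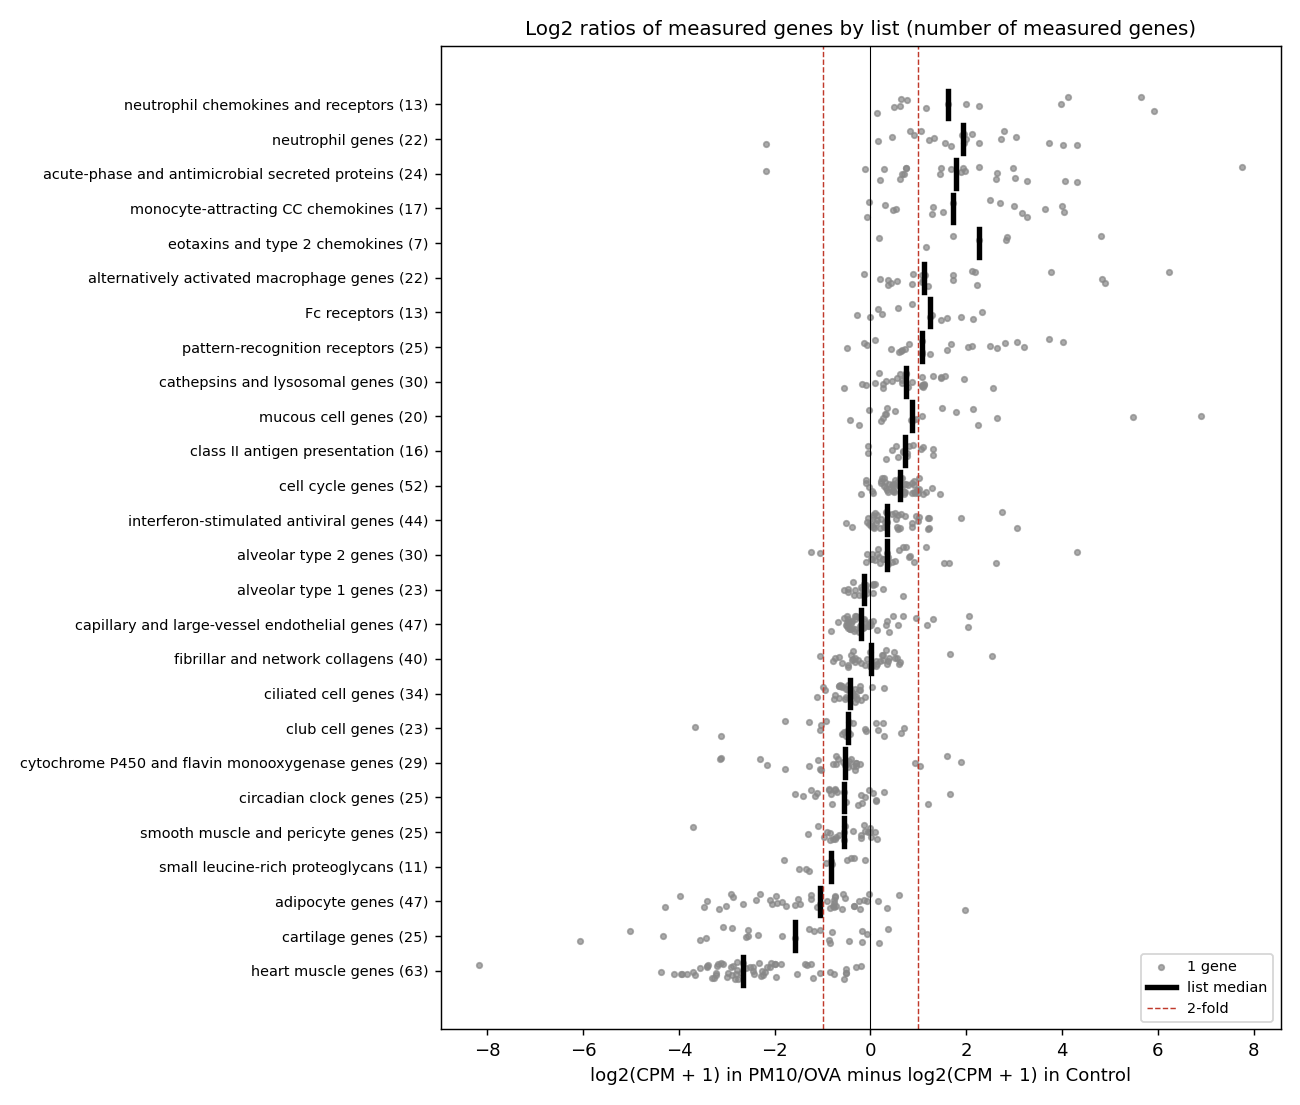
Log2 ratio of each measured gene (grey points, jittered vertically) in 26 of the 75 lists, with the list median as a black bar, dashed lines at 2-fold and the number of measured genes in parentheses. Phagocyte and chemokine lists lie to the right of 0, alveolar type 1 and endothelial genes near 0, and fat, cartilage and heart muscle genes to the left.

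Detoxifying oxygenases were more often lower than higher. Of 29 measured cytochrome P450 and flavin monooxygenase genes 3 were 2-fold higher and 9 lower (median log2 ratio -0.53). Cyp26b1, which degrades retinoic acid, stood at 40.4 CPM in PM10/OVA and 364 CPM in Control, 9.02-fold lower (8.32 to 9.8). Cyp2e1, which oxidises small molecules such as ethanol, was 4.89-fold lower (4.06 to 5.93). The higher ones were Cyp4f18, a leukotriene-degrading enzyme of neutrophils, 4.05-fold higher (3.34 to 4.94), the oxysterol hydroxylase Cyp7b1, 3.49-fold higher (2.7 to 4.56), and Cyp1b1, 2.14-fold higher (1.81 to 2.53). Cyp1a1, the classical target of the aryl hydrocarbon receptor that combustion products activate, was 2.22-fold lower (1.74 to 2.86), so the 2 targets Cyp1a1 and Cyp1b1 lay on opposite sides. In the receptor's list of 13 genes 1 was 2-fold higher and 1 lower, where all measured genes had 3.17% and 2.73%.

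Oxidant, metal and protein-folding stress genes differed in part. Among NRF2 targets 2 of 39 were 2-fold higher and 1 lower, beside 3.17% and 2.73% of all measured genes. The higher ones were Slc7a11, the cystine importer, at 65.7 CPM in PM10/OVA and 3.98 CPM in Control, and heme oxygenase Hmox1, at 153 and 27.7 CPM. Nqo1, the usual reporter of the pathway, was 1.16-fold lower (0.880 to 1.52). Metallothionein Mt2 was 5.96-fold higher (5.07 to 7.03) and Mt1 2.06-fold higher (1.84 to 2.29), and the ferritin genes Fth1 and Ftl1 were 1.98-fold higher (1.95 to 2.0) and 1.89-fold higher (1.87 to 1.92). In the metal and heme list 9 of 29 genes were higher and 1, the iron hormone Hamp, lower. The metal response element (TGCGCNC or TGCACNC, both strands) stood in 31.8% of the promoters of this list, 7 of 22, against 28.2% of all and 39.5% of those of measured genes. The chaperone Hspa5 of the endoplasmic reticulum stood at 1019 CPM in PM10/OVA and 528 CPM in Control, and Sdf2l1, its cofactor, was 3.96-fold higher (3.49 to 4.5), while the stress-death regulator Ddit3 was 1.08-fold higher (0.924 to 1.26). The near-identical heat-shock genes Hspa1a and Hspa1b were 5.81-fold lower (4.7 to 7.25) and 5.68-fold lower (4.69 to 6.92). Both are known to vary with handling of tissue, which was not tested here, as do immediate-early genes. Of 27 immediate-early genes 1 was 2-fold higher, near the 3.17% of all measured genes, and 5 were lower, beside 2.73%. Fos stood at 51.1 CPM in PM10/OVA and 50.3 CPM in Control.

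Because the title speaks of fibrosis, matrix genes were followed by class. Of 40 measured genes of the collagen list 2 were 2-fold higher and 1 was lower, beside 3.17% and 2.73% of all measured genes. In this list 20 had log2 ratios below 0, with a median log2 ratio of 0.00. It leaves out Col10a1, Col2a1 and Col11a1, which were counted with cartilage and were among the 20 lowest log2 ratios. Col1a1, the main fibrillar collagen, stood at 371 CPM in PM10/OVA, 495 CPM in PM10 and 292 CPM in Control. Col3a1 stood at 998, 1248 and 648 CPM in the same order. The 2-fold higher members were the minor collagens Col6a5, 8.03-fold higher (5.71 to 11.6), and Col24a1, 10.7-fold higher (4.3 to 34.5). Elastin (Eln) was 1.88-fold higher (1.79 to 1.97) and Lox, the enzyme that crosslinks elastin and collagen, 2.33-fold higher (2.13 to 2.55). By contrast all 11 measured small leucine-rich proteoglycans had log2 ratios below 0, 4 of them by 2-fold, with a median of -0.82. Decorin (Dcn, chromosome 10, 97479609 to 97518143), which binds collagen and TGF-beta, stood at 125 CPM in PM10/OVA and 321 CPM in Control, and lumican (Lum) at 15.4 and 56 CPM. The fibulins Fbln1 and Fbln2 were 2.4-fold lower (2.13 to 2.7) and 2.69-fold lower (2.34 to 3.11).

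Matrix-cutting enzymes and their inhibitors differed in part. Timp1 stood at 108 CPM in PM10/OVA and 2.36 CPM in Control, 45.6-fold higher (33.5 to 63.8). 9 of 27 genes in the protease list were 2-fold higher and 0 lower, while the median log2 ratio was 0.00. In this list 14 had log2 ratios below 0, where 51.3% of all measured genes lay above 0. Mmp12 was followed by Mmp19, 4.06-fold higher (3.56 to 4.64), the neutrophil collagenase Mmp8, 3.48-fold higher (2.6 to 4.72), and Mmp14, 2.2-fold higher (2.03 to 2.4). Of 38 genes of the TGF-beta list 3 were higher and 0 lower, beside 3.17% and 2.73% of all measured genes, and 26 had log2 ratios below 0. Tgfb1 was 1.5-fold higher (1.4 to 1.6), the target Tgfbi 3.08-fold higher (2.89 to 3.28), and the activin subunit Inhba 5.68-fold higher (3.96 to 8.36). Periostin (Postn), a matrix protein that interleukin-13 induces, stood at 428 CPM in PM10/OVA and 429 CPM in Control. Of 32 fibroblast genes 6 were 2-fold lower and 0 higher. Pdgfra was 1.33-fold lower (1.28 to 1.38), Pi16 of adventitial fibroblasts 2.08-fold lower (1.83 to 2.38), and Scara5 4.68-fold lower (3.75 to 5.89). The myofibroblast and smooth muscle actin Acta2 was 1.15-fold lower (1.1 to 1.19) and the smooth muscle myosin Myh11 1.96-fold lower (1.89 to 2.03). Fat and cartilage express several of these proteoglycan and fibroblast genes, and the summed adipocyte level was 4742 CPM in PM10/OVA and 7720 CPM in Control. The part this plays in the proteoglycan and fibroblast values was not tested.

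**Figure D4:**
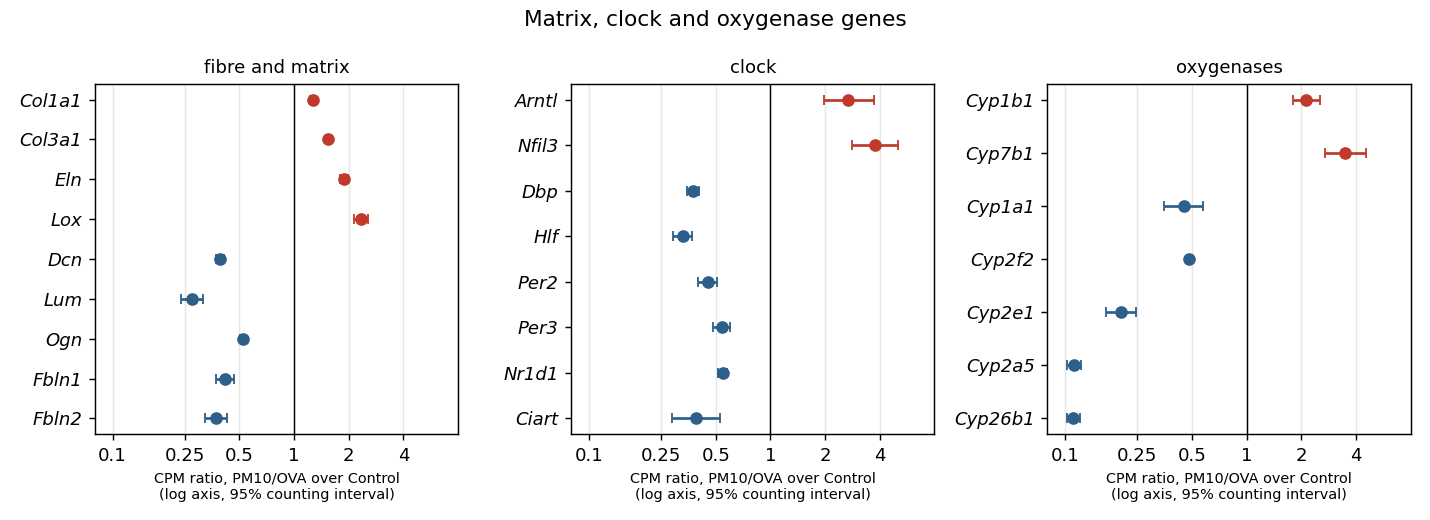
CPM ratio of PM10/OVA over Control on a log axis for matrix, clock and oxygenase genes, with 95% counting intervals, red above 1 and blue below; the intervals leave out variation between lungs. Col1a1, Col3a1, Eln and Lox lie above 1 and proteoglycans and fibulins below it, and Arntl and Nfil3 lie opposite the other clock genes.

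Genes of the lists for neighbouring tissues made the largest negative ratios. Of 63 measured heart muscle genes 55 were at least 2-fold lower and all had log2 ratios below 0. Their median log2 ratio was -2.67, or -2.56 with no filter on low levels. Myh6, the atrial and adult mouse heart myosin, stood at 92.3 CPM in PM10/OVA and 1182 CPM in Control, and Myl7, an atrial light chain, at 26.1 and 249.9 CPM. The natriuretic peptide Nppb had 0 counts in PM10/OVA and 230 in Control. By its counting interval it was at least 56.5-fold lower, and 70.1-fold lower with PM10/OVA set at the floor of 3 counts. The summed level of the heart list was 2121 CPM in PM10/OVA and 8236 CPM in Control, and lay between 1999 and 2960 CPM in the other 3 libraries. Of 47 adipocyte genes 24 were lower and 1 higher, with adiponectin (Adipoq) at 2.46 CPM in PM10/OVA and 36 CPM in Control. Of 25 cartilage genes 16 were lower, and Acan, the cartilage proteoglycan, had 2 counts in PM10/OVA and 618 in Control. Col10a1, of growth cartilage, had 1 count in PM10/OVA and 1212 in Control, and the ratio of Control to PM10/OVA was 1108 (198 to 43790.2). Nerve and Schwann cell genes were higher in 2 and lower in 7 of 20 cases. The mesothelial, thymus and large-airway lists did not have their highest sum in Control. Gene by gene, 10 of 20 mesothelial, 6 of 12 thymus and 8 of 15 large-airway genes were highest in Control, against 24.6% of all measured genes. The limit of the filter given above applies to these counts too. The mesothelial sum was 4114 CPM in PM10/OVA, most of it C3, and 2524 CPM in Control, and 2 of 20 mesothelial genes were higher and 1 lower. The thymus sum was 147 CPM in PM10/OVA, 168 CPM in PM10 and 166 CPM in Control, with 0 of 12 genes at 2-fold. In the PM10 library Nppa was at 4.64 CPM and Adipoq at 3.98 CPM, both also under Control.

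**Figure D5:**
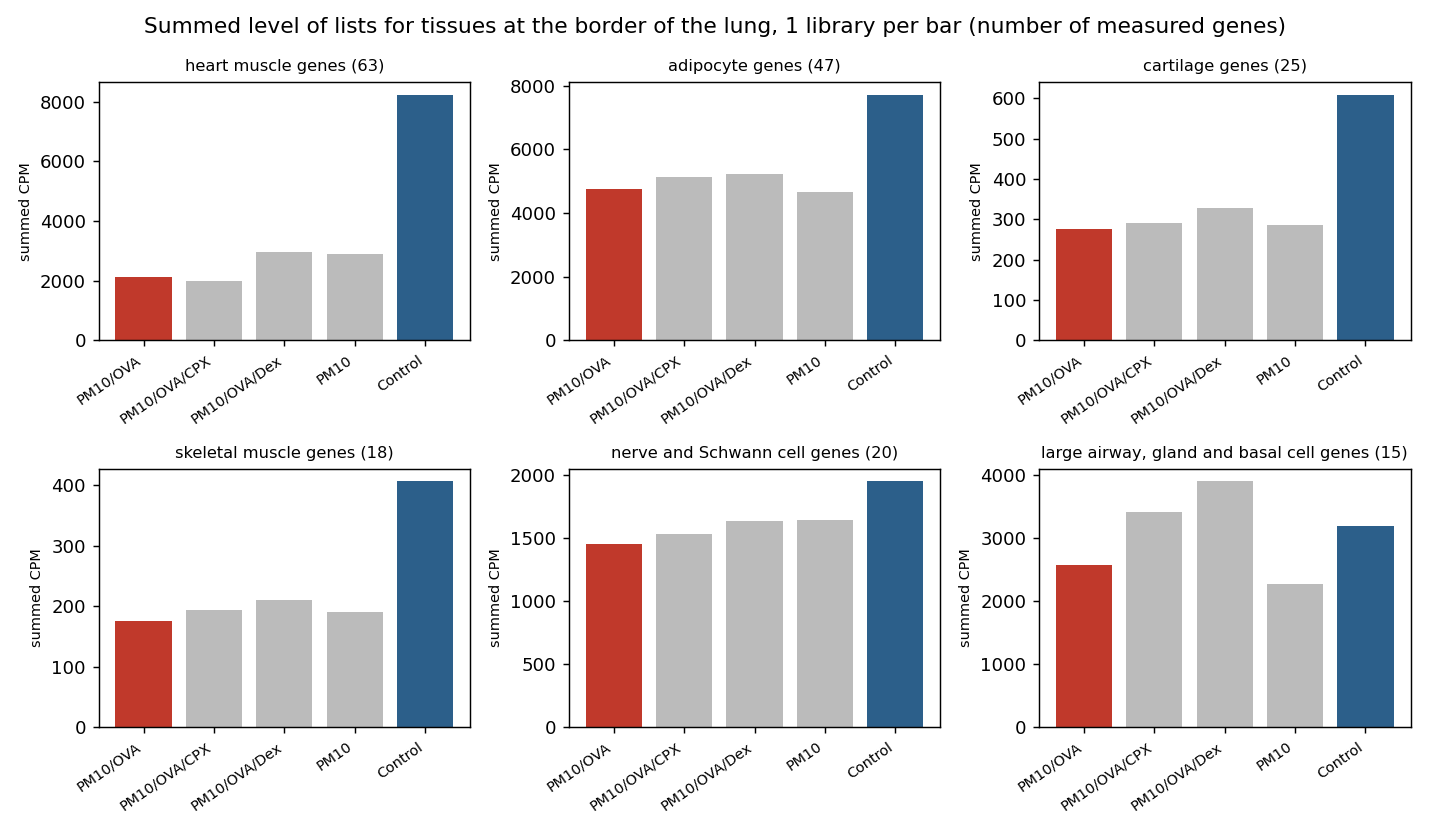
Summed CPM of 6 of the 8 lists for tissues that border the lung, without the mesothelial and thymus lists, 1 bar per library, with the number of measured genes in parentheses. Heart, fat, cartilage, skeletal muscle and nerve sums are highest in Control, while the large-airway sum is highest in PM10/OVA/Dex.

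Antigen presentation, interferon and proliferation genes shifted by less. 4 of 16 class II presentation genes were 2-fold higher (median log2 ratio 0.72), with the invariant chain Cd74 at 1434 CPM in PM10/OVA and 820.0 CPM in Control and its protease Ctss 2.48-fold higher (2.38 to 2.59). Of 44 interferon-stimulated genes 9 were higher and 0 lower. The T cell chemokines Cxcl9 and Cxcl10 were 15.8-fold higher (9.69 to 27.6) and 11.2-fold higher (7.24 to 18.3). The interferon regulator Irf7 stood at 42.6 CPM in PM10/OVA, 452 CPM in PM10 and 26.9 CPM in Control, and was highest in the PM10 library. Of 32 interferon-stimulated promoters 16 held the core of the interferon response element, GAAA repeated after 2 bases of any kind, against 3.99% of all promoters. Of 52 cell cycle genes 48 had log2 ratios above 0, 6 by 2-fold, with Mki67, the proliferation marker, 1.99-fold higher (1.77 to 2.24).

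Lymphocyte genes were followed by cell type. Cd3e, the T cell receptor chain, was 1.17-fold higher (0.924 to 1.49). The costimulatory receptor Tnfrsf9 stood at 18.5 CPM in PM10/OVA and 0.865 CPM in Control, and Il2ra, the high-affinity interleukin-2 receptor chain, was 3.66-fold higher (2.59 to 5.28). Foxp3, of regulatory T cells, was 1.88-fold higher (1.15 to 3.1). Of 30 measured T cell genes 5 were 2-fold higher, of 18 cytotoxic genes 0 and of 20 B cell genes 1. The share among all measured genes was 3.17%. The B cell member was Fcer2a, the low-affinity IgE receptor, 2.44-fold higher (2.12 to 2.82). Cxcl13, which draws B cells into lymphoid follicles, stood at 56.2 CPM in PM10/OVA and 9.63 CPM in Control.

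The molecular clock differed in opposite directions. Arntl (Bmal1), the activating arm, stood at 9.15 CPM in PM10/OVA and 3.4 CPM in Control, and Nfil3, a repressor of clock output, at 13.6 and 3.63 CPM. Dbp, an output gene whose level peaks opposite to Arntl, was 2.67-fold lower (2.48 to 2.87), Hlf 3.04-fold lower (2.71 to 3.42), the repressor Per2 2.21-fold lower (1.96 to 2.5), and Ciart, whose E-boxes are printed above, 2.55-fold lower (1.9 to 3.46). In all, 2 of 25 clock genes were 2-fold higher and 5 lower. The hour at which each mouse was killed is not given in the sources used here, so treatment and hour cannot be told apart for these genes. Glucocorticoid-responsive genes were also split, with 6 of 27 higher and 3 lower. Fkbp5, a usual reporter of the receptor, was 1.82-fold higher (1.56 to 2.13), while Tsc22d3 was 1.28-fold lower (1.23 to 1.33) and Zbtb16 4.1-fold lower (3.3 to 5.15).

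Genes often taken as stable gave the scale for small differences. The cytosolic ribosomal protein list had a median log2 ratio of 0.31 (0.20 once the length trend was removed), with 49 of 50 genes above 0 and none at 2-fold, and the housekeeping list had 0.36. Actb stood at 3307 CPM in PM10/OVA and 2347 CPM in Control, and Gapdh at 423 and 298 CPM. The respiratory chain list had a median of 0.08, and of -0.02 once the length trend was removed. Medians of this size in other lists are no larger than those of genes shared by all cells. Among glycolysis genes 2 of 34 were 2-fold higher and 1 was lower, beside 3.17% and 2.73% of all measured genes. The higher ones were the leukocyte hexokinase Hk3, 3.47-fold higher (2.95 to 4.09), and the lactate exporter Slc16a3, 2.69-fold higher (2.28 to 3.18), and the lower one Pfkm, the muscle phosphofructokinase, 2.09-fold lower (1.86 to 2.35).

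Further lists gave smaller counts. 5 of 23 dendritic cell genes were 2-fold higher, with the conventional dendritic cell receptor gene Flt3 1.9-fold higher (1.4 to 2.6) and the costimulatory ligand Cd86 2.29-fold higher (1.76 to 3.01). Among TNF superfamily genes 8 of 31 were higher, including Tnfsf14, 3.33-fold higher (2.35 to 4.8). 3 of 17 plasma cell and antibody transport genes were higher, and the joining chain of secreted antibodies, Jchain, was 1.5-fold higher (1.37 to 1.64). Of 47 endothelial genes 4 were higher and 0 lower, beside 3.17% and 2.73% of all measured genes. Smooth muscle and pericyte genes were 2-fold lower in 3 of 25 cases, among them Pln, which heart muscle shares. The platelet chemokine Pf4, which macrophages also make, was 4.84-fold higher (4.12 to 5.73), while the megakaryocyte integrin Itga2b was 1.12-fold higher (0.918 to 1.37). The erythroid heme enzyme Alas2 was 1.05-fold higher (0.999 to 1.11). Among cholesterol genes 2 of 27 were higher, beside 3.17% of all measured genes, with the synthesis enzyme Mvd 2.51-fold higher (2.08 to 3.04).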

How the data were processed

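Lung RNA was taken up in Trizol, and 1.3 ug per sample went into strand-keeping libraries (NEBNext Ultra II Directional), per the labels' protocols. Per the submitters' processing notes, TopHat and mm10 were used. The sources used here do not give the counting tool, annotation, strand setting or treatment of reads that fit several genes, so close copies (Chil3 with Chil4, the Ear and Rnase2 family, Saa1 and Saa2, Serpina3, Mcpt and Bpifa genes, Hspa1a and Hspa1b) and overlapping genes are uncertain. The authors deposited unnormalized read counts per gene symbol, 23183 symbols in each of 5 libraries.

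From these, CPM were computed by TMM scaling of all 5 libraries in edgeR 4.0.16 with R 4.3.3 (factors of 0.989 for PM10/OVA and 1.02 for Control). Exact Clopper-Pearson 95% intervals of CPM ratios and the floor of 3 counts cover counting error only. The script was tested on simulated data. Gene coordinates and exon lengths are from GENCODE vM21 (GRCm38). The 75 gene lists and the members named were chosen with earlier results of these data known. The rule names the 20 highest and 20 lowest ratios (without gene models, small RNAs and immune receptor segments), chitinase genes, and in each list described its anchor genes and up to 6 further members. Alternatives were other scaling (DESeq2 1.42.0 size factors), pseudocounts, filters and a length correction. Some genes are not reported here.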

Additional observations from a re-analysis of the deposited data

How the results depend on the processing

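No paired analysis was possible because each group has 1 library, and leaving out a replicate was not possible for the same reason. The counts of 2-fold different genes depended on the pseudocount and the filter on low levels. With a pseudocount of 5 CPM, 261 genes were higher in PM10/OVA and 203 lower, and with a mean of at least 5 CPM 208 were lower (364 higher). Under the other 9 alternatives, including scaling by totals, DESeq2 size factors, leaving out border tissue genes (447 higher, 278 lower) and asking for a counting interval wholly past 2-fold (339 higher, 307 lower), both counts stayed within 1.5 times the values given. With the length trend removed, the median of the respiratory chain list turned to -0.018. Among 675 recomputed list medians 664 lay inside a binomial 95% interval of the list's median. This interval comes from the spread of a list's genes, which share both libraries and are not independent replicates, and it is wide for short lists. Medians inside it could still fall far. With a pseudocount of 5 CPM, Fc receptors went from 1.238 to 0.658 and chitinases from 1.575 to 0.853. Of the medians outside their interval, skeletal muscle moved to -2.24 with a mean of at least 5 CPM, which leaves fewer genes. A pseudocount of 5 CPM moved heart muscle to -1.87, adipocyte genes to -0.70 and ciliated cell genes to -0.32. It also moved cell cycle genes to 0.38 and T cell genes to 0.20. Gene ratios were recomputed only under other scalings, for 43 genes each, and not with the other filters or the length correction. A change of scaling shifts every ratio by the same factor, so only a ratio with a narrow interval could leave it. Of 129 recomputed gene ratios 1 did so, that of Chil1 (5.93 by totals alone). At this depth a gene at 0 counts in Control is known only to lie below about 0.173 CPM, so no fold is given for Epx, with 1 count in PM10/OVA.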

Other observations

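The following genes are in none of the lists, were higher in PM10/OVA and were chosen after their values were seen. Gpr84, a receptor for medium-chain fatty acids, had 139 counts in PM10/OVA and 2 in Control, a ratio of 76 (20.7 to 634). Clec5a, an activating lectin receptor of myeloid cells, stood at 35.3 CPM in PM10/OVA, 23.1 CPM in PM10 and 3.81 CPM in Control. Lilrb4a, an inhibitory receptor of myeloid cells, stood at 90.3, 68.7 and 12.2 CPM in the same order, and Ptafr, the receptor of platelet-activating factor, at 34.3, 22.4 and 5.59 CPM. F10, coagulation factor X, was 5.86-fold higher (4.83 to 7.16). Gatm, the first enzyme of creatine synthesis, which uses arginine as Arg1 does, was 4.75-fold higher (4.18 to 5.41). Hal, which breaks down histidine, stood at 32.6 CPM in PM10/OVA, 32.2 CPM in PM10 and 3.63 CPM in Control, so both exposed libraries had close levels of it.

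A group of neuronal genes lay lower, also chosen after their values were seen. Slc5a7, the choline transporter of cholinergic neurons, had 0 counts in PM10/OVA and 93 in Control, which makes it 28.3-fold lower with PM10/OVA set at the floor of 3 counts. Snap25, a synaptic vesicle fusion protein, had 0 and 88 counts in the same order, 26.8-fold lower on the same floor. Tubb3, the neuronal tubulin, had 5 counts in PM10/OVA and 98 in Control, and Elavl2, a neuronal RNA-binding protein, 4 and 69. Airway and heart both carry parasympathetic ganglia, and which of them these reads came from was not tested. In the PM10 library Slc5a7 had 0 CPM and Snap25 0.166 CPM.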
